A study of Homo sapiens with 6 samples.

Results

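The serine/arginine-rich (SR) splicing factors and their relatives TRA2A and TRA2B were followed in the human cell line GM00156 on 6 two-colour arrays. Members were taken by name, as probes whose only gene symbol in the platform annotation is SRSF with a number, TRA2A or TRA2B. This gave 15 of 14080 probes and 9 of 8987 genes: SRSF2, SRSF3, SRSF4, SRSF5, SRSF9, SRSF10, SRSF11, TRA2A and TRA2B. SRSF1, SRSF6, SRSF7, SRSF8 and SRSF12 have no probe of their own here, and 1 probe that carries SRSF6 among several symbols was left out.

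SR proteins bind exonic enhancers through RNA recognition motifs and recruit the spliceosome through a domain rich in arginine and serine repeats. Many of their genes hold a poison exon, a highly conserved cassette whose inclusion puts a premature stop codon into the mRNA. Such mRNA is degraded by nonsense-mediated decay (NMD), which needs translating ribosomes, and several SR proteins promote inclusion of their own poison exon and so limit their own level. The deposited ratios carry no isoform information, so the mRNA that makes protein and the poison-exon mRNA cannot be told apart.

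Cultures were kept for 10 h with or without 100 µg/ml emetine, an alkaloid that halts ribosomes on mRNA. Both then received 5 µg/ml actinomycin D, which blocks transcription. Treated and untreated cells harvested at 0, 10 and 30 min, 1 h and 8 h were compared on 1 array per harvest, with treated RNA in Cy3. On the sixth array, treated RNA of the 0 min harvest was hybridised with itself (self-self), and its label does not mention actinomycin D. The line comes from the Coriell repository, and the labels give no cell type. Every value below is a log2 ratio between the channels. The labels do not say which channel is the numerator, so signs are called positive and negative and no direction of change with emetine is given. In bulk RNA, a change in the share of cells that express a gene and a change in RNA per cell cannot be told apart.

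Over all probes the robust SD was between 0.44 and 0.91 on the harvest arrays and 0.12 on the self-self array. The label of the 0 min array names untreated RNA as a channel but describes treated RNA on both sides. Across 13091 probes its Pearson's r was 0.89 with 10 min and 0.24 with self-self, given as a description. The r of self-self with the other harvests ran from 0.18 at 8 h to 0.33 at 10 min. The part of the dyes in these correlations was not tested. The 1 h array lacked high values, with a maximum of 2.99 against 5.94 to 7.14 at the other harvests. On each array 1 identical value recurs at between 333 and 534 probes, and such entries were taken as not measured. They include the self-self value of TRA2A and the 0 min value of the third TRA2B probe. In the test described below, 2 of 11 measured fibroblast markers were positive calls and 7 negative calls. Of 6 B lymphocyte markers 3 and 0 were such calls, and of 6 epithelial markers 2 and 1. Over all genes the shares were 37.0% positive and 25.3% negative. The part of these markers in the results was not tested, and a ratio does not show whether a marker is expressed.

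The 250 bases before the start of SRSF3, TRA2B and SRSF4, the 3 genes that lead the positive side, and of SRSF9, called on the negative side, are shown to set their promoters side by side (RefSeq, GRCh38.p14, 5′ to 3′ on the gene's strand). They lie at chr6:36594112-36594361, plus strand for SRSF3, chr3:185938015-185938264, minus strand for TRA2B, chr1:29181901-29182150, minus strand for SRSF4 and chr12:120469749-120469998, minus strand for SRSF9. Capitals mark, on either strand, the CCAAT box, the GC box (GGGCGG), the cyclic AMP response element (TGACGTCA) and the TATA box (TATAAA), none of which overlap here.
SRSF3: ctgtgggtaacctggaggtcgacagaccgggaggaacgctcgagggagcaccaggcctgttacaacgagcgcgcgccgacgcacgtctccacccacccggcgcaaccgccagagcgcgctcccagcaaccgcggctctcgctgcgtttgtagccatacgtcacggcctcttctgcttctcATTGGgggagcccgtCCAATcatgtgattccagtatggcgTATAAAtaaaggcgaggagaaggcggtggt
TRA2B: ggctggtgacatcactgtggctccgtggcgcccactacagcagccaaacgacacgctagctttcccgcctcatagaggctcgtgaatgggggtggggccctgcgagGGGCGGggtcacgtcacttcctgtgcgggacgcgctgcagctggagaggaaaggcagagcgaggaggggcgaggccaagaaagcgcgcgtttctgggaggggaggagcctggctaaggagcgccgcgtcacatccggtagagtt
SRSF4: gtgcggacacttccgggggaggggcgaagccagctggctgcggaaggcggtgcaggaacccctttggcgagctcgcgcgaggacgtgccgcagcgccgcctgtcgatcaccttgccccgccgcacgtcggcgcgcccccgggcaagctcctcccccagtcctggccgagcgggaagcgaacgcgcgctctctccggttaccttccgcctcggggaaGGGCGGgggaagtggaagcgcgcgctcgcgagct
SRSF9: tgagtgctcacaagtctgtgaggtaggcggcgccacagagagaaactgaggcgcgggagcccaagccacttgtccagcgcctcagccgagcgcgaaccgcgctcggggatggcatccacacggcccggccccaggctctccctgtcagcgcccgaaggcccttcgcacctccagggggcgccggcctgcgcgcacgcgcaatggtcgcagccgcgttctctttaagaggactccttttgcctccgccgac
SRSF3 holds 2 CCAAT boxes and 1 TATA box, TRA2B and SRSF4 each hold 1 GC box, and no match to these letters was found in this window of SRSF9. Of 35116 windows of this length before RefSeq gene starts, 32.0% hold the CCAAT box, 42.6% the GC box, 1.65% the cyclic AMP response element and 10.7% the TATA box. Among the 7 measured family genes matched to a window, 1 holds the CCAAT box, 2 the GC box, 0 the cyclic AMP response element and 2 the TATA box. These genes have 8 windows, and the counts by window are the same. The TATA box of SRSF11 lies in a window inside the gene's span (chr1:70221130-70221379), and not in the window before its first start. The matches are letters in a window and no measure of binding.

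SRSF3, a small SR protein known to regulate its own poison exon, had the largest means among the tested probes of the family. The second TRA2B probe was above both SRSF3 probes at 0 and 10 min, and the third, not in the fit, at 30 min. The first SRSF3 probe read 1.39, 2.04, 2.36, 1.16 and 3.55 at 0, 10 and 30 min, 1 h and 8 h, against -0.0046 on the self-self array. The second SRSF3 probe read 1.04, 1.69, 1.81, 0.78 and 3.12 at the same harvests, against -0.09 self-self. Both SRSF3 probes had their highest value at 8 h and their lowest at 1 h, and every harvest lay outside the central 99% of the self-self array, running from -0.32 to 0.47. The probes are annotated to 1 GenBank record, so they may not be independent, and the first was above the second at 5 of 5 harvests by 0.41 on average.

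The tested quantity was the mean log2 ratio over the 5 harvests, with a slope on log2(1 + min / 10) in the same limma fit across 13151 probes. SRSF3 had means of 2.10 (SE 0.23, 5 arrays) and 1.69 (SE 0.22), with limma adjusted p-values of 0.000499 and 0.000634. From the top these means ranked 235 and 407 among the 13151 probes. An exact two-sided sign-flip test over the 5 harvests of the SRSF3 gene mean gave p = 0.0625, the smallest it can give with 5 arrays.

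TRA2B and TRA2A are SR-like proteins that resemble the fly sex-determination factor Transformer-2, and TRA2B is known to control its own poison exon. The first TRA2B probe read 0.96, 1.36, 1.80, 0.83 and 1.77 at 0, 10 and 30 min, 1 h and 8 h, against -0.13 self-self. The second read 1.65, 2.07, 1.96, 0.82 and 1.76, against 0.19 self-self. The third read 1.54, 2.38, 0.59 and 2.73 from 10 min on, against 0.11 self-self. All 3 probes, which share 1 GenBank record, were positive wherever measured and lowest at 1 h, but they differed by up to 0.97 at a single harvest. Means were 1.35 (SE 0.16) and 1.65 (SE 0.19) for the first and second probe, with limma adjusted p-values of 0.00055 and 0.000499. The third probe was not in this fit because its 0 min value was not measured.

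TRA2A, with 1 probe, read 0.49, 1.22, 0.99, 0.71 and 1.30 across the harvests, with no self-self value. Its mean was 0.94 (SE 0.14, limma adjusted p = 0.000891). TRA2B, with its first and second probes averaged, exceeded its paralog TRA2A at 5 of 5 harvests, by 0.56 on average (SD 0.31). The exact sign-flip p of this difference was 0.0625, the smallest possible.

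SRSF4 and SRSF5 are paralogs with a pair of RNA recognition motifs each. The first SRSF4 probe read 0.82, 1.34, 1.18, 0.78 and 2.10 from 0 min to 8 h, against 0.06 self-self. The second, of the same GenBank record, read 0.71, 1.03, 1.06, 0.72 and 2.37, against 0.04 self-self. As with SRSF3, the 8 h value was the highest on both probes, while 0 min and 1 h lay close together. Their means were 1.24 (SE 0.15) and 1.18 (SE 0.15), with limma adjusted p-values of 0.000562 and 0.000638. SRSF5 read 0.66, 0.82, 0.76, 0.21 and 0.71, against -0.08 self-self, and its 1 h value alone lay inside the self-self range. The SRSF5 mean was 0.63 (SE 0.13, limma adjusted p = 0.00406). SRSF4 exceeded SRSF5 by 0.10, 0.36, 0.36, 0.54 and 1.53 across the harvests (mean 0.58, SD 0.55, exact sign-flip p = 0.0625), so the difference was positive on 5 of 5 arrays and widest at 8 h.

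**Figure D1:**
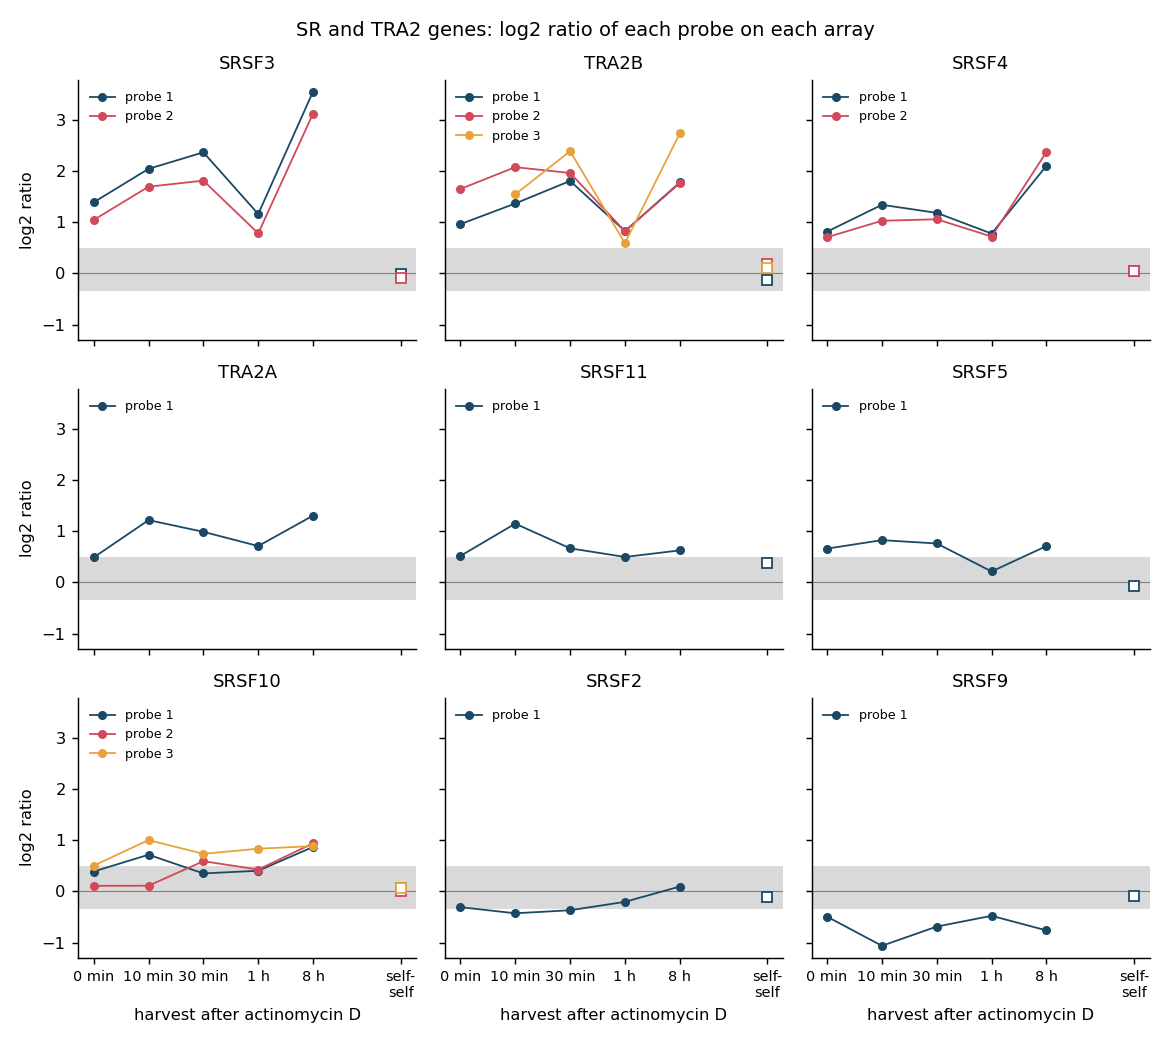
Log2 ratio of each probe (lines with filled points) at the 5 harvests, equally spaced, and on the self-self array (open squares, right) for the 9 genes. The grey band is the central 99% of the self-self array, from -0.32 to 0.47. Each SRSF3 and SRSF4 probe has its own highest value at 8 h, as do some probes of other genes. SRSF9 lies below the band at each harvest.

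SRSF10, known as a splicing repressor when it is dephosphorylated, had 3 probes with smaller values. The first read 0.39, 0.71, 0.35, 0.40 and 0.87 across the harvests, against 0.07 self-self. The second read 0.11, 0.11, 0.59, 0.43 and 0.94, against 0.01 self-self. The third read 0.50, 1.00, 0.73, 0.83 and 0.88, against 0.06 self-self. Their means of 0.54 (SE 0.12), 0.43 (SE 0.11) and 0.79 (SE 0.12) passed at limma adjusted p-values of 0.0058, 0.0117 and 0.00101. Only the third lay above the self-self range at 5 of 5 harvests, and the second and the third differed by up to 0.89 although they share a GenBank record. The call of the second probe was lost without the 30 min array (adjusted p = 0.0568) or the 8 h array (adjusted p = 0.101).

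SRSF11, an SR-related protein that contacts splice site factors, read 0.52, 1.15, 0.66, 0.50 and 0.62, against 0.37 self-self. Its mean was 0.69 (SE 0.13, limma adjusted p = 0.00311). Its self-self value was the largest in size among the measured probes of the family, and the mean less that value was 0.32.

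SRSF9 and SRSF2 stood on the other side. SRSF9, a close relative of SRSF1, read -0.49, -1.06, -0.69, -0.48 and -0.76, against -0.09 self-self. It was below the self-self range at 5 of 5 harvests, and its mean was -0.70 (SE 0.13, limma adjusted p = 0.00263). SRSF2, also called SC35 and known to control its own mRNA through NMD, read -0.31, -0.43, -0.37, -0.20 and 0.09, against -0.11 self-self. Its mean of -0.24 (SE 0.11) did not pass as deposited (limma adjusted p = 0.0872), but it passed with each array centred on its median (-0.34, adjusted p = 0.031) and with arrays scaled to equal spread (-0.27, adjusted p = 0.0179).

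In all, 14 of the 15 probes were measured at 5 harvests and tested. At a limma adjusted p of 0.05, 12 were positive calls, where 35.0% of all probes were, and 1 was a negative call, where 26.3% were. A mean of at least 1 that passed was found for 6 family probes, against 9.22% of all probes. By gene, with probes averaged, 7 of 9 were positive calls (37.0% of all 8748 genes) and 1 was negative (25.3%). The median of the 14 probe means was 0.87, against 0.12 for all 13151 probes. Without the 0 min array there were 13 positive calls and 1 negative among 15 probes, and without the 1 h array 12 and 1 among 14. Over all probes, 7991 of 13186 and 7890 of 13218 were called on the mean in these fits, both directions together.

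**Figure D2:**
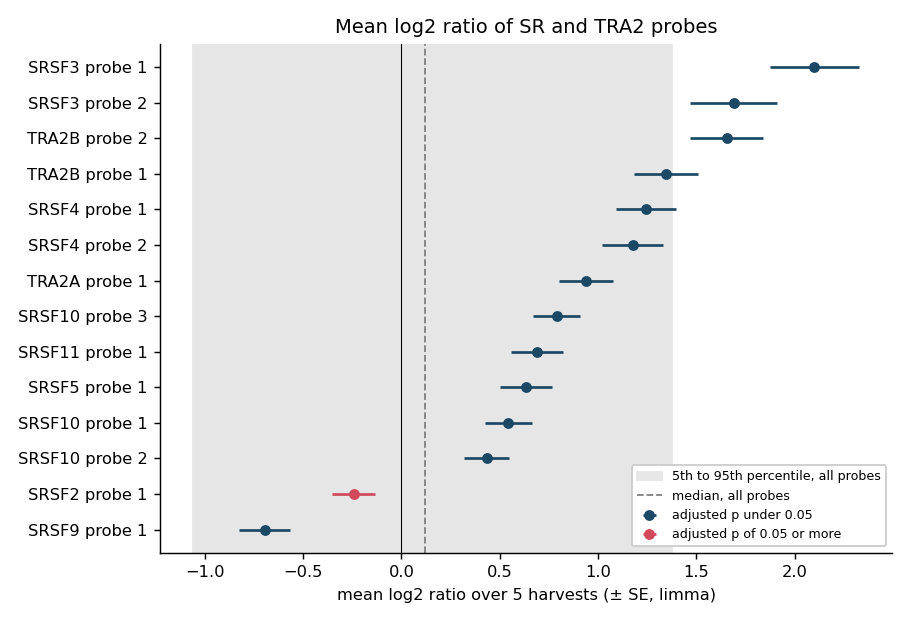
Mean log2 ratio over the 5 harvests with its limma SE for the 14 tested probes, SRSF3 at the top and SRSF9 at the bottom. The grey band spans the 5th to 95th percentile of all 13151 probes (-1.06 to 1.38) and the dashed line is their median of 0.12; SRSF3 probes lie at 2.10 and 1.69.

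With the self-self array as the level in the same fit, 0 of 13 family probes passed on either side, and 2 of all 13091 probes did. The smallest adjusted p in the family was 0.167, for the first probes of SRSF3 and TRA2B. That fit assumes that a single self-self array varies like the harvests.

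Set against the self-self range harvest by harvest, with no test, 9 of 13 family probes lay above it at 0 min, where 18.6% of all probes did. At 10 and 30 min 10 did (33.2% and 33.3% of all probes), at 1 h 8 did (19.2%) and at 8 h 11 did (33.5%). Above it at all 5 harvests were 8 of the 13 probes, against 10.5% of all probes. These were both probes of SRSF3, SRSF4 and the first and second of TRA2B, the third of SRSF10 and that of SRSF11. Below it were 1, 2, 2, 1 and 1 probes at the 5 harvests, where 20.8%, 34.1%, 29.9%, 26.4% and 29.8% of all probes were, and only SRSF9 lay there at all 5 (13.1% of all probes).

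Ordered by the gene mean, the family ran SRSF3 (1.89), TRA2B (1.50), SRSF4 (1.21), TRA2A (0.94), SRSF11 (0.69), SRSF5 (0.63), SRSF10 (0.59), SRSF2 (-0.24) and SRSF9 (-0.70). SRSF3 exceeded TRA2B at 4 of 5 harvests, by 0.15, 0.20, 0.15 and 1.57 from 10 min on, and was below it by 0.09 at 0 min (exact sign-flip p = 0.125). SRSF11, SRSF5 and SRSF10 did not differ beyond their spread, with mean gaps of 0.06 (SD 0.23) and 0.04 (SD 0.29). The steps largest against their SD were from SRSF10 to SRSF2 (0.83, SD 0.15) and from SRSF2 to SRSF9 (0.45, SD 0.28), in the same direction at 5 of 5 harvests. Neighbours were set by these same means, so the sign of each mean gap was fixed in advance. The p-value and the agreement in direction are therefore descriptions only. No p over 5 harvests can be under 0.0625.

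The slope asks whether the ratio moved with time after transcription was blocked. By limma 0 of 14 family probes passed on the slope (0.00% of all probes), and at an unadjusted p under 0.05 there were 5, all positive, where 10.2% of all probes were. These were both probes of SRSF3 (0.33, SE 0.12 and 0.31, SE 0.12 per unit of log2(1 + min / 10)), both of SRSF4 (0.19, SE 0.08 and 0.27, SE 0.08) and the second of SRSF10 (0.15, SE 0.06). The slopes of SRSF3 and SRSF4 depended on the 8 h array. Without it the SRSF3 slopes were -0.02 and -0.05 and the SRSF4 slopes -0.02 and 0.01, and none of the 14 probes passed. The second SRSF10 probe stood at 0.16 without it. Without the 1 h array the first and second SRSF3 probes (adjusted p = 0.0136 and 0.0156) and the second SRSF4 probe (adjusted p = 0.0326) passed, where 3.87% of all probes passed with a positive slope. With time in minutes only the second SRSF4 probe passed (adjusted p = 0.0421, where 3.24% of all probes did).

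Between the first and the last harvest, with 1 array each and no test, SRSF3 differed by 2.16 and 2.08 (8 h minus 0 min). A larger difference was seen for 1.58% and 1.80% of all probes. SRSF4 differed by 1.28 and 1.66, with 6.49% and 3.51% of all probes above. TRA2A differed by 0.82 and TRA2B by 0.81 and 0.11. SRSF11 and SRSF5 differed by 0.11 and 0.05, near the median of 0.04 over all probes, and SRSF9 by -0.27. A difference above 1 was found for 4 of 14 family probes, against 10.4% of all probes, and 8 of 14 had their highest value at 8 h, against 31.6%. At 1 h, 10 of 14 lay below both 30 min and 8 h, against 37.9%, which goes with the missing large values of that array, and its part in the result was not tested.

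**Figure D3:**
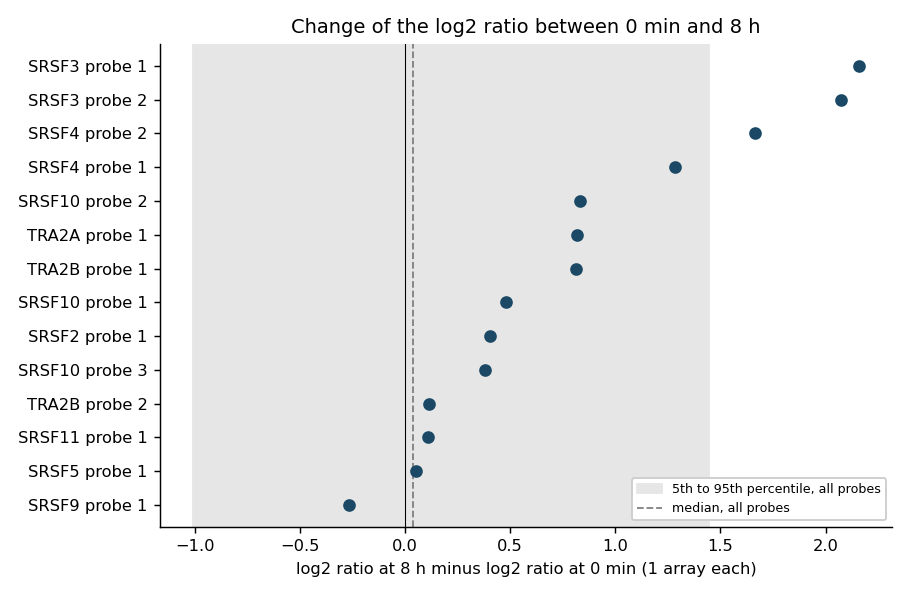
Log2 ratio at 8 h minus that at 0 min for the 14 tested probes. The grey band spans the 5th to 95th percentile of all 13151 probes (-1.01 to 1.45) and the dashed line is their median of 0.04; both SRSF3 probes and the second SRSF4 probe lie beyond the band.

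Among 8724 other genes, those whose ratios were most like SRSF3 by root mean squared difference over the 5 harvests were GPATCH3 (0.11), TLE4 (0.12), G2E3 (0.14), PPRC1 (0.14) and ZNF330 (0.17). GPATCH3 read 1.38, 1.77, 2.23, 0.95 and 3.29, beside the SRSF3 gene values of 1.22, 1.87, 2.09, 0.97 and 3.33. Within the family the nearest were TRA2B (0.71, rank 265) and SRSF4 (0.76, rank 304). By Pearson's r on centred arrays SRSF4 was nearer to SRSF3 (0.97) than TRA2B (0.71), but 248 genes had an r above 0.95 over the same 5 arrays, so r separates genes poorly here.

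SR proteins are phosphorylated in the cytoplasm by SRPK kinases, brought into the nucleus by the import receptor TNPO3, and phosphorylated further by CLK kinases. On the list of SR kinases and the import receptor, 13 genes were measured, with 6 positive calls and 5 negative ones, where 37.0% and 25.3% of all genes were such calls. The median was 0.14, the same as over all genes. CLK1 read 1.05, 2.12, 1.99, 1.03 and 1.31 across the harvests, against 0.15 self-self, and its mean was 1.50 (SE 0.19, limma adjusted p = 0.000569). CLK3 read 0.70, 0.93, 0.94, 0.80 and 2.72, against -0.11 self-self, with a mean of 1.22 (SE 0.16). The 8 h value of CLK3 stood apart from its other harvests. DYRK1A, a kinase of SR proteins and other nuclear proteins, had a mean of 1.90 (SE 0.18). CDK13 and CDK12, kinases of RNA polymerase II with arginine and serine rich domains, had means of 2.25 (SE 0.29) and 0.67 (SE 0.16). DYRK2 was at 0.63 (SE 0.11).

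The other measured genes of the list were negative calls or did not pass. SRPK1 read -0.45, -0.56, -0.61, -0.28 and -0.05, against -0.08 self-self, and passed on the negative side with a mean of -0.39 (SE 0.11, limma adjusted p = 0.0154). SRPK2 (0.14, SE 0.11) and SRPK3 (0.09, SE 0.11) did not pass. TNPO3 had a mean of -0.43 (SE 0.11), DYRK1B -0.41 (SE 0.13), DYRK3 -0.72 (SE 0.24) and the kinase AKT1 -0.74 (SE 0.12), all past the threshold. DYRK3 read -0.25, -1.50, -1.50, -0.83 and 0.47 across the harvests, so it was positive at 8 h.

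Many SR-related proteins hold a domain rich in arginine and serine, but the genes of this list were not checked for it. The 35 measured genes gave 23 positive calls, where 37.0% of all genes were, and 2 negative ones, where 25.3% were. The negative ones, named after their values were seen, were RBMX and DDX46. The list's median was 0.76, against 0.69 for the SR and TRA2 genes and 0.14 for all genes. With each array centred on its median these medians were 0.66, 0.59 and 0.04. CCNL1, a cyclin with such a domain, read 3.78, 5.01, 5.16, 1.53 and 4.72 (mean 4.04, SE 0.49). RSRC2 had a mean of 3.27 (SE 0.31), the spliceosomal protein PRPF38B 1.84 (SE 0.18) and the splicing regulator SREK1 1.79 (SE 0.20), which was at 0.37 on the self-self array.

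The list of other splicing regulators with NMD-coupled isoforms was drawn up by name, and its members were not checked for such isoforms. Not every member is a splicing regulator, such as TMEM183A, a negative call at -0.33. For the 31 measured genes of this list there were 12 positive and 8 negative calls, against 37.0% and 25.3% of all genes, and the median was 0.17. PTBP2, whose mRNA is known to be sent to NMD by exon skipping, was at 1.54 (SE 0.20), QKI at 1.30 (SE 0.14) and HNRNPL, which controls its own mRNA through NMD, at 1.05 (SE 0.14). HNRNPA1, an antagonist of SR proteins at many exons, was at -1.25 (SE 0.17) over 9 probes.

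Known NMD targets outside the family, 38 of them measured, gave 19 positive and 5 negative calls, against 37.0% and 25.3% of all genes, and a median of 0.40. The largest were ATF3 (4.35, SE 0.54), GADD45B (4.29, SE 0.62), DDIT3 (3.38, SE 0.36) and MAP3K14 (3.15, SE 0.33), all on the side of SRSF3. The negative calls, named after their values were seen, were ASNS (-1.15), BAG1 (-1.09), RPL12 (-0.66), TNRC6A (-0.41) and UPF2 (-0.40). ATF3 read 4.88 at 0 min and 5.02 at 8 h, beside 1.22 and 3.33 for SRSF3.

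The 21 measured NMD and exon junction factors gave 5 positive and 4 negative calls, against 37.0% and 25.3% of all genes, and a median of 0.03. PNRC2, which links NMD to decapping, read 1.03, 1.91, 2.39, 1.56 and 4.09 (mean 2.20, SE 0.19). The SMG1 kinase partners SMG8 and SMG9 were at 1.94 (SE 0.22) and 0.84 (SE 0.13), and NCBP2, the small cap-binding subunit, at -1.01 (SE 0.13). Named after their values were seen, the remaining calls were DHX34 (0.68), MAGOH (0.38), RBM8A (-0.53), RUVBL2 (-0.42) and UPF2, also among the NMD targets. The 38 measured genes of the core spliceosome gave 11 positive and 14 negative calls, where 37.0% and 25.3% of all genes were called, and a median of -0.13. SART3, a recycling factor of small nuclear ribonucleoproteins, was at 1.75 (SE 0.27), while LSM2, TXNL4A and LSM4 were at -1.22 (SE 0.18), -0.98 (SE 0.16) and -0.94 (SE 0.15).

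**Figure D4:**
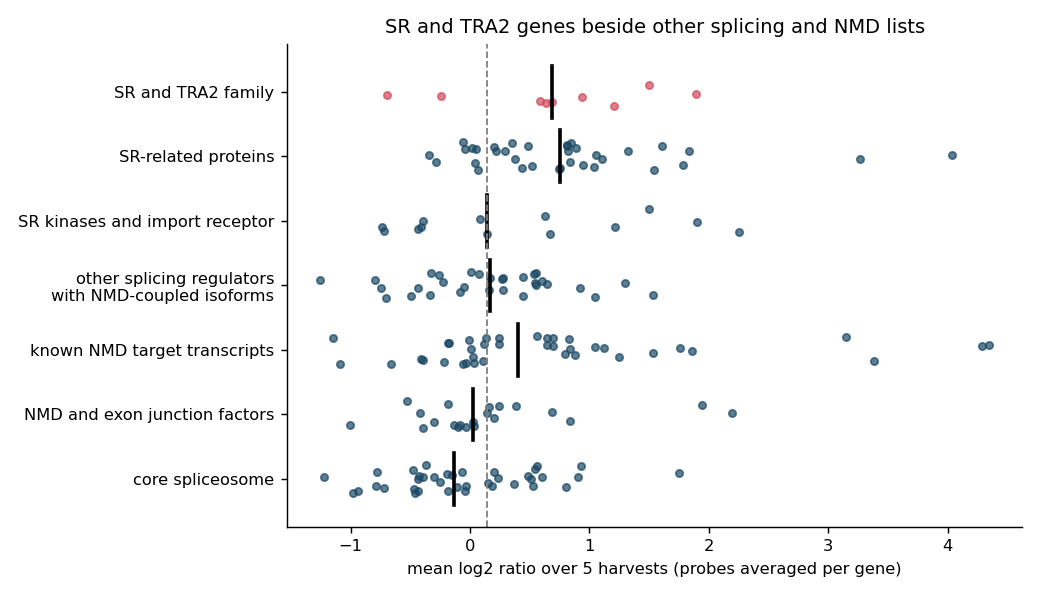
Mean log2 ratio over the 5 harvests of each measured gene (points, spread vertically for legibility) in the SR and TRA2 family and in 6 other lists, with the list median as a black bar and the median of all genes (0.14) dashed. The SR and TRA2 family and the SR-related proteins have medians of 0.69 and 0.76, and the core spliceosome -0.13.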

How the data were processed

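The deposited values are log2 ratios. Per the labels, each is a quotient of background-subtracted mean spot intensities, normalised by the authors within a slide by means of housekeeping genes, with ratios of a quality value under 0.5 discarded. A common shift of the housekeeping genes would thus shift a whole array. The log base is inferred: raising 2 to the values gave multiples of 1/10000 (tolerance 0.05) for 99.5% to 100% of them. Arrays were not centred on each other. Software is not given in the sources used here.

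Of the probes, 11304 carry 1 symbol, 446 several and 2330 none, and 11282 were matched by gene ID to RefSeq (GRCh38.p14). A value that recurs on an array was set to missing. Each probe was fitted with limma 3.58.1 (R 4.3.3) over the 5 harvests with a mean and a slope, leaving 3 residual degrees of freedom. The two-sided p-values were adjusted by Benjamini-Hochberg over 13151 complete probes, or 8748 genes for lists, with a threshold of 0.05. With 1 array per harvest, these p-values reflect scatter between harvests, which may come from 1 pair of cultures. Tested on simulated data for 13151 probes, the mean test recovered 24% of probes with a true mean of 0.5 and 100% with 1. The slope test recovered 22% with 0.3 and 96% with 0.6. Only 50 probes were changed at each value, whereas 8056 of the 13151 probes passed on the mean in the data. The adjusted threshold was thus stricter for the simulated means. On the slope 0 of the 13151 probes passed in the data, so the threshold was more lenient for the simulated slopes. Neither recovery carries over to the data.

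The members, lists and named genes were chosen with earlier results of these data known. Named were all members, all measured SR kinases, up to 4 genes per other list with the largest mean in size, and the 5 genes most like SRSF3. Leaving out each array, centring, scaling, robust moderation, keeping repeated values, averaging probes, other time scales and other ranges were tried.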

Additional observations from a re-analysis of the deposited data

How the results depend on the processing

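Of 12 positive family probes past the threshold for the mean, 11 to 13 were found when each array was left out in turn, and the negative count stayed at 1. Over all probes, from 6274 of 13303 to 7991 of 13186 were called on the mean in those fits, both directions together. By gene the positive count was 7 of 9, because fewer features are tested, and with the self-self array as the level both counts were 0. The negative count was 2 with each array centred on its median and 2 with arrays scaled to equal spread, the added probe being SRSF2. In these fits 7773 and 8853 of all 13151 probes were called on the mean, both directions together. The positive slope count, 0 as reported, ranged from 0 to 3 when each array was left out, the 3 being without the 1 h array, and was 1 with time in minutes. With the self-self range narrowed to 95%, 2 family probes were below it at 0 min, in place of 1. With a limit of 1 log2 unit, the numbers above were 3, 8, 6, 1 and 6 at the 5 harvests in order. The numbers below were 0, 1, 0, 0 and 0. The shares of all probes at these other limits were not counted. Of the 5 genes most like SRSF3 by root mean squared difference, 0 were among the 5 most alike by Pearson's r. No result of a single probe changed sign among those past the threshold. Treated and untreated RNA of a harvest were paired within its array. Replicates could not be paired between harvests, because each harvest has 1 array. For these changes the cause was not tested except where named. The arrays' number, 1 per harvest, limits every value, and no signal over background is given with the ratios.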
